A study of Mus musculus with 3 samples.

Results

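The Id and E-protein family was described here as 7 genes taken by symbol from the 32532 gene symbols of each count file, namely the 4 Id genes Id1, Id2, Id3 and Id4 and the 3 E-protein genes Tcf3, Tcf4 and Tcf12. RNA on ribosomes of mouse cerebral cortex was captured by translating ribosome affinity purification (TRAP), in which an antibody against EGFP pulls down ribosomes carrying an EGFP/Rpl10a fusion. All 3 libraries, replicates 1, 2 and 3, form 1 immunopurified group, from adult mice that carried both Htr3a-Cre (NO176) and the reporter Rosa26-LSL-EGFP/Rpl10a. In these mice Cre is made under Htr3a regulatory sequence, and any cell with a history of Cre expression carries the tagged ribosome. The labels give neither strain, sex and exact age nor whether each library came from its own animal or from pooled tissue, so p-values hold for these samples alone. Those for differences between genes rest on the spread between the 3 libraries, pooled in part over all genes. Where Id1 was subtracted, that spread was pooled wholly. The spread between the libraries may be technical. Those for variation between libraries set the counts against counting noise only. RNA of unpurified cortex was not used here, so a level says that a transcript was present in the captured fraction and not that it was enriched there. In such bulk libraries, a small number of cells with much RNA and many cells with little RNA cannot be told apart.

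E proteins are basic helix-loop-helix (bHLH) transcription factors that bind DNA at the E-box, as homodimers or paired with tissue-specific class II bHLH factors such as the Neurod proteins. Id proteins keep the helix-loop-helix but lack the basic region that contacts DNA, so a dimer of an Id protein with an E protein does not bind an E-box. Bone morphogenetic protein (BMP) signals acting through Smad proteins are a well-known inducer of Id genes, and Id2 is used as a marker of neurogliaform and related cortical interneurons.

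The members are close relatives, so the coding stretch most alike within each family is shown first. Each line below gives, from GENCODE M21 on GRCm38, the 41 codons of the principal coding transcript in which the family is most alike. This stretch lies in the part coding for the helix-loop-helix in the Id genes and for the basic helix-loop-helix in the E-protein genes. Capitals mark bases that differ from Id2 among the Id genes, and from Tcf12 in the E-protein gene Tcf3.
Id2: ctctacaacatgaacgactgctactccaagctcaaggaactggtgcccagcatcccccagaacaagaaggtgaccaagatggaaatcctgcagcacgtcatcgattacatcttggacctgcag
Id1: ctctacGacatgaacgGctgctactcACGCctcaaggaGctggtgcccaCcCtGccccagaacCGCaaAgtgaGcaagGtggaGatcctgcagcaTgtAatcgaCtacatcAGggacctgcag
Id3: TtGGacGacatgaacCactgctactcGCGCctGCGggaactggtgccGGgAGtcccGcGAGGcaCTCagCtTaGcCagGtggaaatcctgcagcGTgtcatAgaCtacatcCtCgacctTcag
Id4: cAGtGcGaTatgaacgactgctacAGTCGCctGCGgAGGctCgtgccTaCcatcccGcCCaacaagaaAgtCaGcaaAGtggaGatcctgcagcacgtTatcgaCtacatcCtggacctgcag
Tcf12: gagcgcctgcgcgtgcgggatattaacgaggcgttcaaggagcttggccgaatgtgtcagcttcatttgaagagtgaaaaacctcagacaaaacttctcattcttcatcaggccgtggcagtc
Tcf3: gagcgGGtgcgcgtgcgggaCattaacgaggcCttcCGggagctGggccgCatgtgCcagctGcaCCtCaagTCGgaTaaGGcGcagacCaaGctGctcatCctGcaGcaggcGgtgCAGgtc

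The Id2 stretch lies in exon 1 of 3 at chr12:25095783-25095905 on the minus strand, and those of Id1 (exon 1 of 2, chr2:152736515-152736637), Id3 (exon 1 of 3, chr4:136143999-136144121) and Id4 (exon 1 of 3, chr13:48261690-48261812) on the plus strand. The Tcf12 stretch lies in exon 19 of 21 at chr9:71856333-71856455 and that of Tcf3 in exon 18 of 19 at chr10:80410426-80410548, both on the minus strand. Even here, Id1, Id3 and Id4 differed from Id2 at 22, 36 and 32 of 123 bases, and Tcf3 and Tcf4 from Tcf12 at 30 and 24. The longest run of identical bases between any annotated transcripts of a pair of Id genes was 19, between Id2 and Id3. Among E-protein genes it was 47, between Tcf4 and Tcf12. These runs were sought over whole transcripts and may lie outside the stretches above. Outside the family, matches of at least 100 bases at 95% identity or more to another annotated gene were found for Id4 (110 bases, to the overlapping noncoding gene Gm49291 on the other strand) and for Tcf12 (107 bases, to Gm34885). Exons of other genes covered 4.44% of the Id4 exons and 0% of those of the other members, and since the strand setting of the counting is not known, Id4 counts may hold reads of the opposite strand. Tcf3 and Tcf4 here are the E-protein genes and not the HMG-box factors of Wnt signalling once given the same names, because Tcf7l1 and Tcf7l2 stand in the files as separate genes.

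RefSeq promoter windows on GRCm38.p6, which run from 250 bases before a gene's start to 50 after it, were matched for 5 of the 7 genes. The E-box, searched as CANNTG, which reads the same on both strands, occurred 1 time in the window of Id2 and 1 time in that of Tcf3. It occurred 0 times in those of Id3 and Id4, and 1, 2 and 1 times in the 3 windows of Tcf12, while 72.3% of all 32851 windows held it at least 1 time.

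Gene counts came to 14383545, 13951332 and 14461053 in replicates 1, 2 and 3. Htr3a, whose regulatory sequence drives Cre, stood at 655, 582 and 569 TPM, the count per exon length scaled to the same sum in every library. The GABA enzyme gene Gad2 averaged 2195 ± 111 TPM and the excitatory transporter gene Slc17a7 196 ± 56.1 TPM. Values after ± are SDs over the 3 libraries throughout.

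Each side of the family was dominated by a single gene. Tcf4, the E protein of the developing and adult forebrain, was the most abundant member at 206 ± 29.0 TPM, and Id2 followed at 92.0 ± 11.9 TPM. Tcf12, which encodes the E protein HEB, came next at 27.9 ± 7.33 TPM. Id4, Id3 and Tcf3 lay close together between 6.59 and 7.13 TPM on average, and Id1 was near the detection limit.

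Tcf4 (chromosome 18, 69343356 to 69689079) had 18028, 14327 and 15179 counts, which gave 239, 186 and 192 TPM in replicates 1, 2 and 3. Replicate 1 was the highest and the other two were close together. By mean TPM, Tcf4 ranked 913 among the 16653 genes with a length and a count. Tcf12 (chromosome 9, 71842688 to 72111871) had 1494, 1249 and 910 counts, or 34.9, 28.6 and 20.3 TPM, and ranked 5570. Its replicates were spread widely, with replicate 1 again the highest and replicate 3 the lowest. Tcf3 (chromosome 10, 80409514 to 80433647), which encodes the E12 and E47 proteins of lymphocyte development, had 72, 80 and 73 counts, or 6.47, 7.04 and 6.26 TPM, and ranked 9702. Tcf4 thus made up 85.7 ± 2.0% of the summed TPM of the E-protein genes and Tcf12 11.5 ± 1.97%. Levels per length depend for these genes on the length used: merged exons cover 27382 nt in Tcf4, with 62 annotated transcripts, and 15529 nt in Tcf12, with 21, whereas their principal transcripts have 8577 and 6299 nt. With the principal transcript as length, Tcf4 stood for 89.4 ± 1.64% of the sum.

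Id2 (chromosome 12, 25093799 to 25097140) had 533, 706 and 661 counts, or 79.3, 103 and 93.9 TPM, and ranked 2284. It was lowest in replicate 1, the library in which Tcf4 and Tcf12 were highest. Id4 (chromosome 13, 48261228 to 48266026), an Id gene known for its part in neural precursors and astrocytes, had 75, 80 and 77 counts, or 7.07, 7.39 and 6.93 TPM. The libraries hardly differed for Id4. Id3 (chromosome 4, 136143497 to 136145755) had 26, 34 and 43 counts, or 5.27, 6.75 and 8.31 TPM. Replicate 1 was the lowest library for Id3, as it was for Id2. Id1 (chromosome 2, 152736251 to 152737410), which with Id3 is well known from endothelial cells, had 0, 8 and 2 counts, or 0, 2.45 and 0.597 TPM. The 0 in replicate 1 allows up to 3 counts, which correspond to 0.209 CPM (counts scaled to the library total) or 0.938 TPM, counting error only. Id2 made up 86.1 ± 0.489% of the summed TPM of the 4 Id genes, with merged exons close to the share that Tcf4 held among the E-protein genes. These shares lay further apart with other lengths. They were 86.5 ± 0.713% for Id2 and 89.4 ± 1.64% for Tcf4 with the principal transcript. Without length correction they were 84.6 ± 0.615% and 92.5 ± 1.27%.

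**Figure D1:**
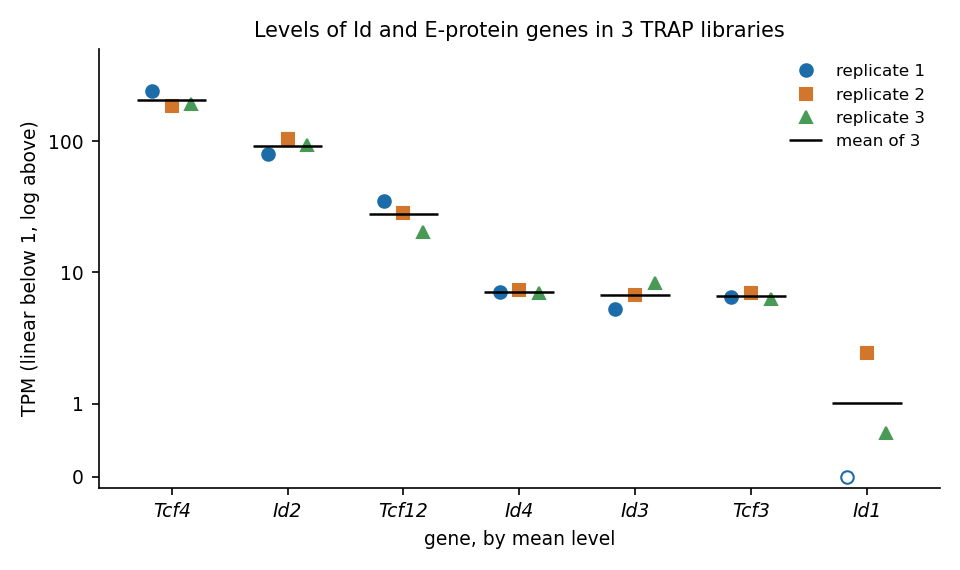
TPM (vertical axis, linear below 1 and logarithmic above) of each member in replicates 1, 2 and 3, with a line at the mean, ordered by mean level; an open symbol marks 0 counts. Tcf4 and Id2 stand above 79 TPM in every library, Id4, Id3 and Tcf3 between 5.27 and 8.31 TPM, and Id1 at 0 to 2.45 TPM.

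The order of levels was tested by setting, within each library, the log2(TPM + 0.1) of a gene against that of the next lower member, in a limma fit over all 13137 genes with a mean of at least 1 TPM, with p-values adjusted over all of them by the Benjamini-Hochberg method at a threshold of 0.05. Of the 6 neighbours in the order, 4 pairs passed. Tcf4 exceeded Id2 by log2 differences of 1.59, 0.85 and 1.03 (mean 1.16, SD 0.38; limma, adjusted p = 0.00242), while 11.9% of all genes were called higher than Id2. Id2 exceeded Tcf12 by 1.18, 1.84 and 2.20 (mean 1.74, SD 0.52; limma, adjusted p = 0.000206), and 29.6% of all genes were called higher than Tcf12. Tcf12 exceeded Id4 by 2.29, 1.94 and 1.54 (mean 1.92, SD 0.38; limma, adjusted p = 0.000992), against 64.1% of all genes called higher than Id4. These 3 steps had the same direction in 3 of 3 libraries.

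The lower part of the order was not resolved above Id1. The mean log2 difference of Id4 minus Id3 was 0.10 (SD 0.34; limma, adjusted p = 0.733), with Id4 higher in 2 of 3 libraries. That of Id3 minus Tcf3 was 0.02 (SD 0.35; limma, adjusted p = 0.935), with Id3 higher in 1 of 3. Of all genes, 64.3% were called higher than Id3 and 65.5% higher than Tcf3. Tcf3 exceeded Id1 by log2 differences of 6.04, 1.48 and 3.19 (mean 3.57, SD 2.30; limma, adjusted p = 0.0123), and 82% of all genes were called higher than Id1. In the fit that subtracted Id1, the standard error was 1.37 for every member, although the SDs ran from 2.16 to 2.56. The spread was thus wholly pooled there, and the 3 values of a pair did not set its own p-value apart from their mean. Noise in the counts of Id1 is part of every difference in that fit. The size of Tcf3 minus Id1 depends on the pseudocount because Id1 had 0 counts in replicate 1. Its call ended with a pseudocount of 0.01 (4.74; limma, adjusted p = 0.0639), without moderation (limma, adjusted p = 0.157), with a variance prior that follows the level (limma, adjusted p = 0.0547) and without replicate 3 (3.76; limma, adjusted p = 0.145). Among all 21 pairs of members, 18 passed in the same fits, and 0 calls depended on which gene of the pair was subtracted. Such calls were common among genes at large, since 64.1% to 82% of all genes were called higher than Id4, Id3, Tcf3 or Id1. The number of passing pairs is therefore not particular to the members. The pairs that did not pass, with levels per merged exon length, were those among Id4, Id3 and Tcf3.

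The length used for each gene moved several of these steps. Tcf4 minus Id2 was 2.52 with the principal or the longest transcript and 4.64 without length correction. Id2 minus Tcf12 was 0.75 with the principal transcript (limma, adjusted p = 0.0563) or the longest (limma, adjusted p = 0.0591), where its call was lost, and turned to -0.92 without length correction (limma, adjusted p = 0.0148). It also missed the threshold without moderation (limma, adjusted p = 0.0618). Tcf12 minus Id4 was 3.21 with the principal or the longest transcript and 3.92 without length correction. Without length correction, Id4 minus Id3 passed at 1.17 (limma, adjusted p = 8.91e-05), and Id3 minus Tcf3 turned to -1.12 and passed (limma, adjusted p = 0.00207). Tcf4 above Id2 and Tcf12 above Id4 passed with all 4 lengths, whereas the place of Id2 above Tcf12 rested on the merged exon length.

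**Figure D2:**
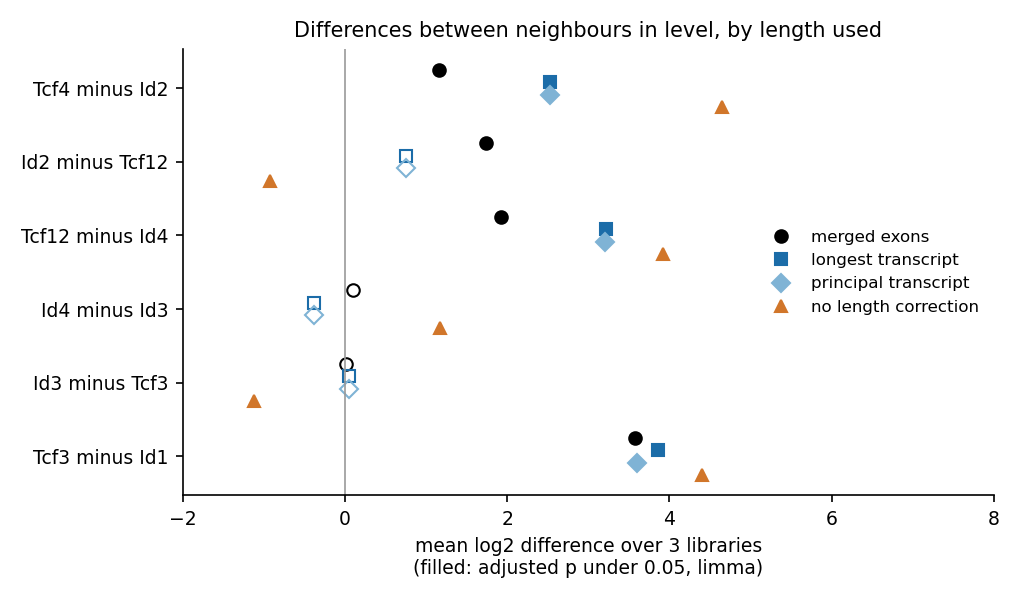
Mean log2 difference over the 3 libraries (horizontal axis) between neighbours in the order of levels, with 4 ways to account for length; filled symbols passed the threshold in limma. Tcf4 minus Id2, Tcf12 minus Id4 and Tcf3 minus Id1 stay to the right of 0 and filled, while Id2 minus Tcf12 runs from 1.74 with merged exons to -0.92 without length correction.

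Summed over each side of the family, Id transcripts came to 91.7, 119 and 109.7 TPM and E-protein transcripts to 280.3, 222 and 218 TPM in replicates 1, 2 and 3. The ratio of the Id sum to the E-protein sum was 0.327, 0.539 and 0.502, so E-protein transcripts were the more abundant side in each library and replicate 1 had the lowest ratio. This order of the sums was found with each length tried, but the size of the ratio was not stable: its mean of 0.456 ± 0.113 with merged exons was 0.184 ± 0.0463 with the principal transcript and 0.0446 ± 0.0108 without length correction. These are ratios of transcripts, and protein was not measured.

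Variation between the libraries was set against counting noise by chi-square tests on counts with TMM library sizes (edgeR), over the 12949 genes that averaged 1 CPM or more, with Benjamini-Hochberg adjustment. All members but Id1 passed that filter, and 3 of these 6 varied beyond counting noise, against 74.3% of all genes tested. Scaled counts of Tcf12 were 127%, 102% and 71.4% of their mean in replicates 1, 2 and 3 (chi-square test, adjusted p = 1.27e-40). Those of Tcf4 were 118%, 90.1% and 91.9% (adjusted p = 7.93e-163), and those of Id2 87.7%, 112% and 101% (adjusted p = 0.000275). For Tcf4, replicate 1 stood apart from the other two, while the libraries of Tcf12 and of Id2 were spread on both sides of the mean, with replicate 1 the highest for Tcf12 and the lowest for Id2. Id3 had a wider relative range than Id2, with 79.2%, 99.6% and 121% of its mean, but at its low counts this did not exceed counting noise (adjusted p = 0.255). Id4 and Tcf3 ranged over 95.8% to 103% and 93.6% to 107% of their means (adjusted p = 0.898 and 0.748). Without replicate 1, when 42.7% of all genes still varied, the calls of Tcf4 (adjusted p = 0.168) and Id2 (adjusted p = 0.107) were lost and that of Tcf12 was not (adjusted p = 1.00e-14). All 3 calls were kept without replicate 2 and without replicate 3, when 62.4% and 54.9% of all genes varied. With edgeR dispersions, the coefficient of variation between libraries beyond counting noise was estimated at 0.147 for Tcf4, 0.173 for Id2 and 0.195 for Tcf12, below the median of 0.224 over all genes tested. The estimate was 0.272 for Id4, 0.276 for Tcf3 and 0.357 for Id3, above that median. These estimates are drawn toward the trend of genes of like level, which was 0.146 for Tcf4, 0.185 for Id2 and 0.164 for Tcf12. Against that trend, Tcf12 lay above, Id2 below and Tcf4 close to it. The trend was 0.312, 0.315 and 0.400 for Id4, Tcf3 and Id3, above each of their estimates. At the low counts of Id4, Tcf3 and Id3, the estimates do not show that these genes varied more than Tcf4, Id2 or Tcf12.

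**Figure D3:**
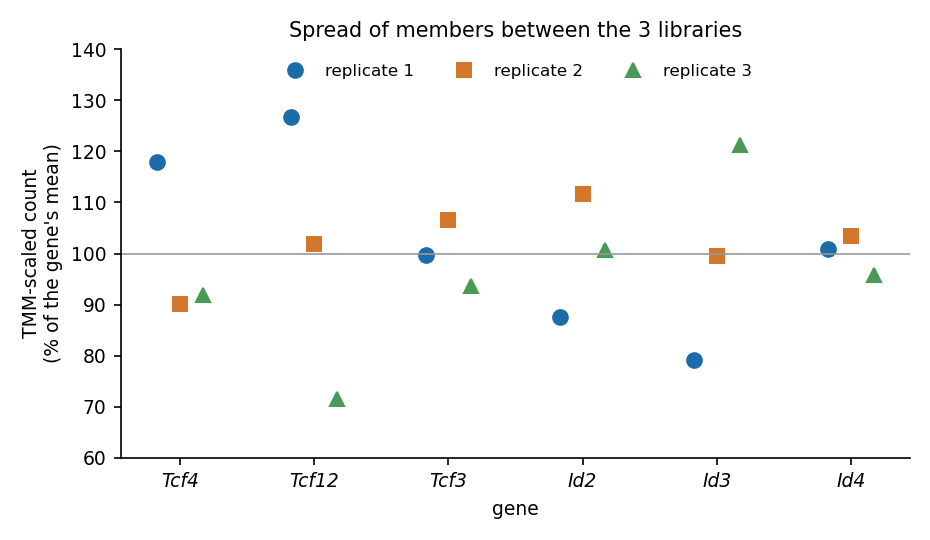
TMM-scaled count of each member in each library as a percent of that gene's mean over the 3 libraries (vertical axis); Id1, with 0 to 8 counts, is not drawn. In replicate 1, Tcf4 and Tcf12 lie above 100% and Id2 and Id3 below it, and Tcf12 has the widest range, from 71.4% to 127%.

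Transcript length moved with this pattern. Over all protein-coding genes that averaged 1 CPM or more, the median log2 scaled count of replicate 1 minus the mean of the other two was -0.38 for the 2726 genes with a principal transcript under 2 kb, -0.04 for 4994 genes of 2 to 4 kb, 0.09 for 2652 genes of 4 to 6 kb and 0.20 for 1715 genes of 6 kb or more. For the members this value was -0.27 for Id2 (1969 nt) and -0.47 for Id3 (1278 nt), 0.02 for Id4 (3849 nt) and -0.00 for Tcf3 (2950 nt), and 0.57 for Tcf12 (6299 nt) and 0.37 for Tcf4 (8577 nt). The short members were therefore low and the long members high in replicate 1, as genes of their lengths were in general, and the part of length in the members' spread was not tested. In replicate 3, Tcf12 stood at -0.67 against the other two libraries, below the median of -0.13 of the longest class, and Tcf4 stood at -0.17.

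**Figure D4:**
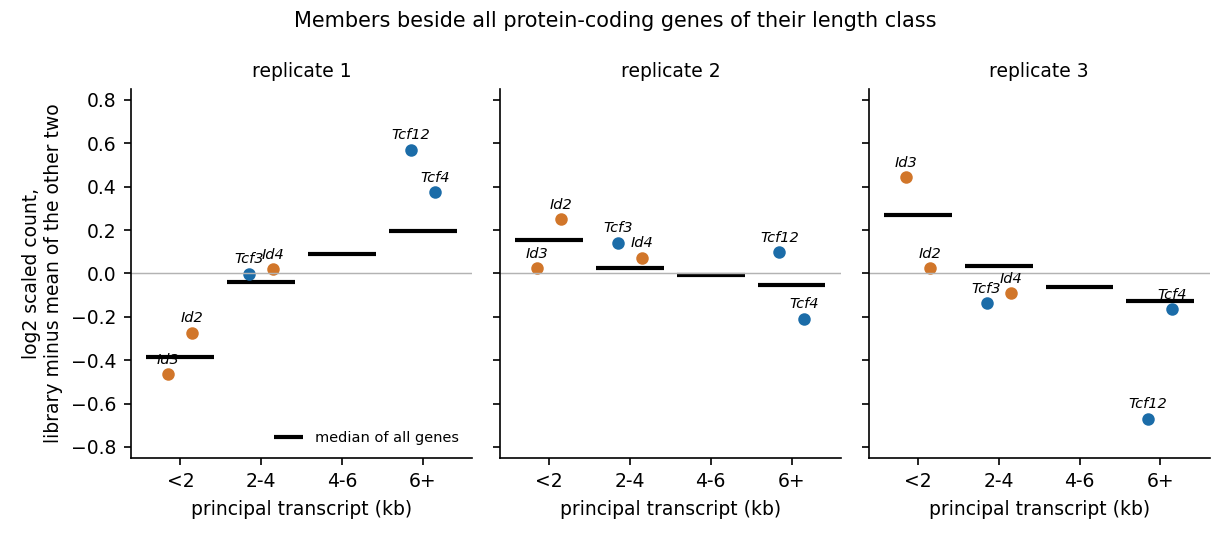
Log2 TMM-scaled count of each library minus the mean of the other two (vertical axis) for 6 members (points, orange for Id genes and blue for E-protein genes) and for the median of all protein-coding genes in the same class of principal transcript length (black lines); Id1 is not drawn. In replicate 1 the class medians run from -0.38 under 2 kb to 0.20 at 6 kb or more and the members follow that order, and Tcf12 in replicate 3 lies well below its class.

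The class II bHLH factors that pair with E proteins ranged from 0 counts to levels near that of Id2. Of 21 neural factors, 10 reached 1 TPM in 3 of 3 libraries and 6 reached 10 TPM, against 50.9% and 33.2% of all genes with a length. The leaders were Neurod6 at 81.8 ± 1.48 TPM and Neurod2 at 58.1 ± 13.8 TPM, both factors of excitatory cortical neurons. Atoh1, Atoh7 and Bhlhe23 were among the 6 neural factors with 0 counts in all 3 libraries. Of 22 other class II factors, known mostly from tissues outside the nervous system, 2 reached 1 TPM in 3 of 3 libraries, 10 had 0 counts (among them Figla, Hand1 and Hand2), and the highest were Scx at 6.12 ± 4.10, Mesp2 at 2.69 ± 1.58 and Tcf15 at 1.08 ± 0.960 TPM. In mean TPM, Tcf4 and Id2 stood above every factor of both lists, though Id2 exceeded Neurod6 by less than its own SD, and that difference was not tested.

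Hes and Hey family factors, a further bHLH branch that works largely without E proteins, included transcripts as abundant as Id2. Hey1, a target of Notch signalling, had 56.3, 127 and 137 TPM and so was lowest in replicate 1, as Id2 was. Bhlhe40 and Bhlhe41, repressors tied to the circadian clock, averaged 80.4 ± 9.33 and 54.7 ± 10.9 TPM. Of the 12 genes, 8 reached 1 TPM in 3 of 3 libraries, and Helt and Hes2 had 0 counts.

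Among BMP pathway genes, the median over the ligand list was 0.654 ± 0.169 TPM, against 35.3 ± 6.10 TPM over the receptors and 28.9 ± 2.66 TPM over the Smads. Of 13 ligand genes, 4 reached 1 TPM in 3 of 3 libraries, led by Bmp3 at 31.6 ± 1.77, Bmp2 at 10.2 ± 0.0631 and Bmp7 at 8.85 ± 2.42 TPM, and Bmp10, Bmp8a and Gdf2 had 0 counts. The type II receptor gene Bmpr2 reached 215 ± 36.9 TPM, the activin and BMP receptor gene Acvr2a 72.8 ± 6.30 TPM and the type I receptor gene Bmpr1a 49.3 ± 2.52 TPM, and 5 of 7 receptor genes reached 1 TPM in 3 of 3 libraries. Smad4, the shared partner Smad, stood at 54.8 ± 9.14 TPM, and the BMP-regulated Smad5 and Smad9 at 33.2 ± 3.07 and 30.2 ± 3.89 TPM, whereas the inhibitory Smad6 had 0 counts in all 3 libraries. Of 12 antagonist and co-receptor genes, 9 reached 1 TPM in 3 of 3 libraries, among them Twsg1 (which can also act in favour of BMP signals) at 41.1 ± 2.81 TPM and the antagonist gene Sostdc1 at 35.1 ± 6.73 TPM.

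Genes for cofactors of E proteins stood high as a list, with a median of 67.5 ± 7.73 TPM over 12 genes beside 2.07 ± 0.165 TPM over all genes with a length, and 11 of 12 reached 10 TPM in 3 of 3 libraries. The acetyltransferase gene Crebbp averaged 162 ± 22.4 TPM, Lmo4, a LIM-only adaptor, 158 ± 8.87 TPM and its LIM-binding partner gene Ldb2 139.6 ± 11.5 TPM. Of 4 genes linked to the turnover of Id proteins, all reached 1 TPM in 3 of 3 libraries, with the signalosome subunit gene Cops5 at 117 ± 7.23 TPM, the ubiquitin ligase gene Smurf2 at 48.4 ± 2.93 TPM and the deubiquitinase gene Usp1 at 24.6 ± 2.43 TPM. The HMG-box factors that share older names with Tcf4 and Tcf3 stood at 5.15 ± 1.27 TPM (Tcf7l2) and 1.62 ± 0.442 TPM (Tcf7l1), and their relative Tcf7 at 4.01 ± 3.02 TPM.

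**Figure D5:**
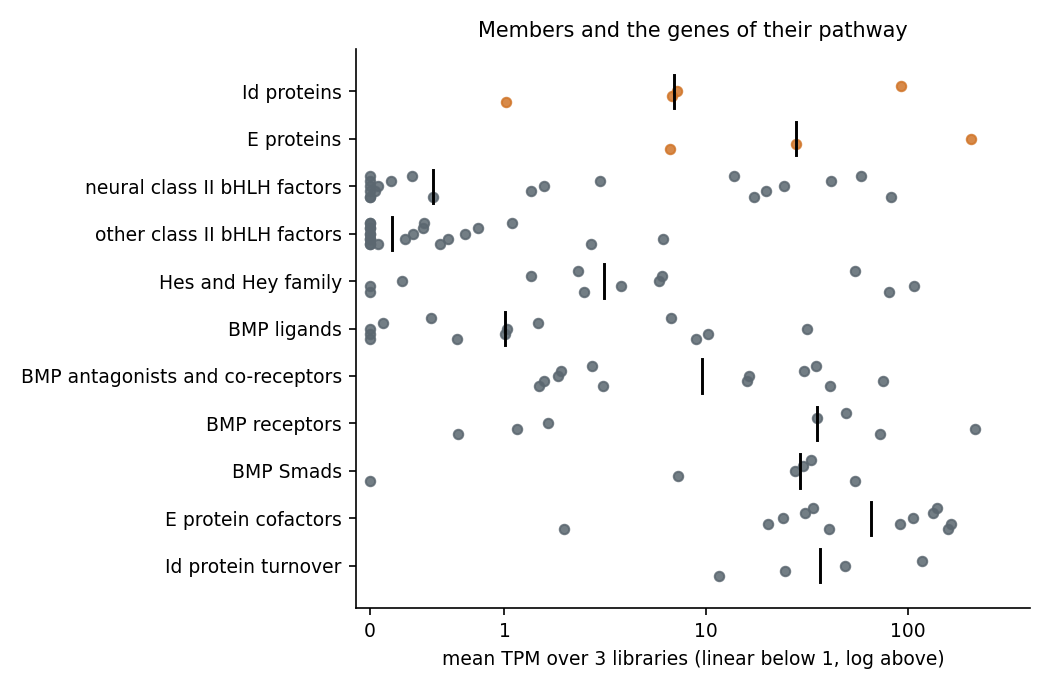
Mean TPM over the 3 libraries (horizontal axis, linear below 1 and logarithmic above) of every measured gene of the Id, E-protein, bHLH, BMP, cofactor and turnover lists (1 point per gene, orange for the members), with a bar at the median of these means in each list. Tcf4 and Id2 lie to the right of all class II bHLH points, and most of those points lie below 1 TPM.

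For each member, the gene of these lists nearest in level over the 3 libraries was found by the mean absolute difference in log2(TPM + 0.1). Tcf4 was nearest to Bmpr2, at 257, 202 and 187 TPM (difference 0.09, and 27 genes of all were at least as near). Id2 was nearest to Neurod6 (0.19, 270 genes), Tcf12 to Smad9 (0.24, 238 genes), Id3 to the inhibitory Smad7 (0.16, 74 genes) and Id4 also to Smad7 (0.34, 692 genes). Tcf3 was nearest to Hes1 (0.34, 669 genes) and Id1 to Bhlha9 (0.35, 16 genes). Over 3 libraries of 1 group, this difference holds both the mean level and the pattern between libraries, and their parts were not separated. For every member, 16 or more genes were at least as near, so the nearest list gene was not singled out. Among the members themselves, Id4 and Tcf3 lay nearest to each other (0.11).

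Id genes are also known from cells other than interneurons, and markers of those cells were measured beside them. Among 7 endothelial markers 0 reached 1 TPM in 3 of 3 libraries; Cldn5, which defines these cells in brain, had 0, 3 and 0 counts, Pecam1, Flt1 and Tek averaged 0.937 ± 0.775, 1.11 ± 0.705 and 0.607 ± 0.404 TPM, and the list summed to 7.93, 4.69 and 4.62 TPM where Id1 had 0, 2.45 and 0.597. Mural markers had a median of 1.93 ± 0.553 TPM, with Pdgfrb at 0.797 ± 0.252, Rgs5 at 19.3 ± 0.319, Acta2 at 2.76 ± 1.19 and Kcnj8 at 1.11 ± 0.453 TPM. All 7 astrocyte markers reached 1 TPM in 3 of 3 libraries, with Aqp4 at 10.1 ± 2.78, Gfap at 4.72 ± 1.33, Gja1 at 1.95 ± 0.547 and Slc1a3 at 12.6 ± 0.421 TPM. They summed to 98.8, 81.6 and 83.4 TPM, highest in replicate 1, where Id2 and Id3 were lowest and Id4 lay between the other two. The markers did not share that order. Aqp4 was highest in replicate 1 (13.3, 8.72 and 8.22 TPM), Gfap was lowest there (3.53, 4.47 and 6.16 TPM) and Gja1 was highest in replicate 3 (2.23, 1.32 and 2.30 TPM). The part of astrocytes in the Id levels was not tested. The 4 microglial markers summed to 14.5, 8.64 and 11.5 TPM, with Cx3cr1 at 2.84 ± 0.617, Csf1r at 2.35 ± 0.633, P2ry12 at 6.25 ± 2.37 and C1qa at 0.111 ± 0.192 TPM.

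Oligodendrocyte markers summed to 230.6, 155 and 140.4 TPM, with Mbp at 37.3 ± 0.220, Mobp at 31.7 ± 1.70 and Mog at 12.4 ± 9.03 TPM. Precursor markers summed to 48.5, 44.7 and 36.1 TPM, with Olig1 at 24.3 ± 2.89, Olig2 at 13.7 ± 4.78, Pdgfra at 3.92 ± 0.534 and Cspg4 at 1.21 ± 0.928 TPM. Both sums were highest in replicate 1 and lowest in replicate 3, the order that Tcf12 also had. Not every marker had it: Mbp stood at 37.5, 37.1 and 37.3 TPM and Olig1 at 22.8, 27.6 and 22.4 TPM. The part of these cells in the Tcf12 values was not tested.

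Markers of neurons were higher. Excitatory markers summed to 374, 399 and 509.6 TPM, with Slc17a7, Neurod6 and Neurod2 among them, and the sum was lowest in replicate 1, as Id2 was. Not every marker had this order, and Neurod6 stood at 81.9, 83.3 and 80.4 TPM. GABAergic markers had a median of 685 ± 114.0 TPM, with Gad1 at 519 ± 39.0 and Slc32a1 at 234 ± 53.6 TPM. Among Htr3a class genes, Adarb2 stood at 347 ± 70.3, Prox1 at 220.0 ± 43.1 and Nr2f2 at 122 ± 16.6 TPM. Of the genes that mark the neurogliaform and Lamp5 cells in which Id2 is known, Lamp5 had 202, 241 and 261 TPM and Npy 3218 ± 434 TPM, both lowest in replicate 1, while Ndnf at 61.6, 49.7 and 38.7 TPM and Reln at 68.0, 51.1 and 56.7 TPM were highest there. Id2 thus followed some of these markers across the libraries and not others, and the part of any of these cell types in the Id2 level was not tested. Levels in replicate 1 also moved with transcript length over all protein-coding genes, as given above. The part of length in the marker patterns of all these cell types was not tested.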

How the data were processed

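Whole cortex was homogenised and EGFP-tagged polysomes were immunopurified, per the labels' protocols, and each of 3 libraries came with 1 file of read counts. The deposited values are raw counts per gene symbol, not normalized. The submitters' processing notes name STAR 2.0.0e, HTSeq and mm10; annotation, counting mode, strand setting and read length: not given in the sources used here. The 5 lines of each file that name no gene stayed out of library sizes and tests: 11.8%, 11.0% and 13.1% of records fell on no feature, 2.49%, 2.83% and 2.68% were ambiguous and 11.2%, 11.3% and 13.1% had no unique alignment in replicates 1, 2 and 3. A count of 0 allows up to 3 counts, or 0.209, 0.215 and 0.207 CPM, counting error only.

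TPM were computed here from the counts and merged exon lengths of GENCODE M21 on GRCm38, the assembly mm10 stands for; 23155 symbols matched as written and 741 through older names, and 8636 were left without a length. Tests were two-sided: limma 3.58.1 for differences between genes within libraries, and a chi-square test on counts scaled with edgeR 4.0.16, with DESeq2 1.42.0 as an alternative for scaling and dispersion. Fits for different members share genes and libraries, so their p-values are not independent. Both tests were tested on simulated data. Sequence copies were searched with BLAST 2.17.0. Tables and figures were made with Python 3.11.15, matplotlib 3.10.9, NumPy 2.4.6 and pandas 2.3.3, and fits with R 4.3.3.

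The members and gene lists were chosen with earlier results of these data known, and the length classes after the values were seen. All members were named, with the 3 genes of highest mean TPM and up to 3 genes at 0 counts of each pathway list, the first 4 genes of each cell type list, the nearest list gene of each member, and Htr3a, Gad2 and Slc17a7 as checks; some genes that this rule takes are not reported here, but stay in the counts, medians and sums of their lists. A test between groups was not possible, since the series given here has 1 group.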

Additional observations from a re-analysis of the deposited data

How the results depend on the processing

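Of the 4 neighbour steps that passed, Tcf4 minus Id2 and Tcf12 minus Id4 kept direction and call under every alternative run, with log2 values of 0.94 to 4.64 and 1.74 to 3.92. Id2 minus Tcf12 (1.74) lost its call with the longest transcript (0.753), the principal transcript (0.753) and without moderation (1.74), and turned to -0.922 without length correction. Tcf3 minus Id1 (3.57) lost its call with a pseudocount of 0.01 (4.74), without moderation (3.57) with a prior variance trend (3.57) and without replicate 3 (3.76), and ranged over 2.34 to 4.61 when a replicate was left out. Id4 minus Id3 (0.0956) was -0.384 with the longest and -0.383 with the principal transcript, passed at 1.17 without length correction and ranged over -0.0654 to 0.273 when a replicate was left out. Id3 minus Tcf3 (0.0175) turned to -1.12 without length correction, where it passed, and ranged over -0.176 to 0.172 when a replicate was left out. Of the 6 neighbour pairs, 4 passed in the fit reported, 6 without length correction (with Id2 minus Tcf12 and Id3 minus Tcf3 turned), 2 without moderation, 3 to 4 when a replicate was left out and 3 to 4 under the other settings. The number of members that varied beyond counting noise was 3 with TMM and 1 to 3 when a replicate was left out, the lowest without replicate 1. Without a filter on low counts it was 4, where Id1 was added (chi-square test, adjusted p = 0.0114). In that setting 59.3% of all 18745 genes varied, and Id1 had 0, 8 and 2 counts. The mean ratio of the Id to the E-protein sum (0.456) was 0.184 with the longest or the principal transcript, 0.0446 without length correction and 0.415 to 0.521 when a replicate was left out. Where a length was exchanged, the change follows from the lengths themselves; elsewhere the cause was not tested. No paired analysis was possible because the series has 1 group. Depth limits Id1 most, with 0 to 8 counts per library, then Id3, with 26 to 43 counts per library.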
